A study of Mus musculus with 24 samples.

Results

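Cholesterol synthesis, uptake and export was followed through 30 genes, chosen by name from the 24015 gene rows of the table: 8 of the mevalonate and prenyl steps, 11 that take squalene to cholesterol, 4 of the SREBP2 control system, and 7 of uptake, trafficking inside the cell and export. Livers came from female B6C3F1 mice gavaged with 8 mg/kg body weight furan per day in corn oil, or with corn oil alone as control, for 21 days, and were collected 4 h after the final dose. Furan is a volatile compound that liver cells oxidise to a reactive dialdehyde. Each liver was split into formalin-fixed, paraffin-embedded (FFPE) pieces held in formalin for 18 h or for 3 wk, and a fresh-frozen piece. The furan libraries used were animals 41, 42, 43 and 44 in both FFPE kinds and animals 41, 43 and 44 in fresh-frozen tissue; the control libraries were animals 02, 03, 04 and 06 in both FFPE kinds and animals 02, 04 and 06 in fresh-frozen tissue. Every replicate of a group is a separate animal, and all animals, controls included, received the corn oil vehicle. Frozen and FFPE tissue also differed in extraction kit, and FFPE RNA came from 1 section (18 h) or 2 sections (3 wk) of 10 µm, so these cannot be told apart from fixation.

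Hepatocytes make cholesterol from acetyl-CoA through mevalonate, isoprenoid diphosphates, squalene and lanosterol. When sterol in the endoplasmic reticulum is low, the escort protein Scap carries the transcription factor SREBP2, the product of Srebf2, to the Golgi, where it is cut and released to raise transcription of the synthesis genes. Insig1 and Insig2 hold Scap back when sterol is plentiful. Insig1 is itself a target of SREBP2. Cholesterol also enters as lipoprotein, leaves the lysosome through Npc1 and Npc2, and is exported to lipoproteins by Abca1 or to bile by Abcg5 and Abcg8.

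The promoters of 4 members that passed the test in fresh-frozen livers are printed here because they belong to genes that moved in opposite directions, 3 up and 1 down. The windows run from 250 bases before to 50 bases after the start of the gene in RefSeq on GRCm38.p6, each read 5′ to 3′ on the strand of its gene. Capitals mark CCAAT on either strand, the box bound by NF-Y, a factor known to work beside SREBP2 at sterol genes. Mylip and Npc2 also fell, and their windows are not printed. CCAAT occurred 3 times in the Mylip window and 2 times in that of Npc2, against 2 in Mvd and 1 in each other window printed. The windows are chr5:28071162-28071461 on the plus strand for Insig1, chr10:76531355-76531654 on the plus strand for Lss, chr8:122443373-122443672 on the minus strand for Mvd and chr19:6067801-6068100 on the minus strand for Tm7sf2.
Insig1: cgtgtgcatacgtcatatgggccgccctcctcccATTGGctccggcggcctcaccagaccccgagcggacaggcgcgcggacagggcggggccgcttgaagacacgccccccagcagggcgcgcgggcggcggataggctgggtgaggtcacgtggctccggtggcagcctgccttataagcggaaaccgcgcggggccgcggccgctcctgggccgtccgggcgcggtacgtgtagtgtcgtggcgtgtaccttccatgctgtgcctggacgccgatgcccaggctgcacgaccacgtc
Lss: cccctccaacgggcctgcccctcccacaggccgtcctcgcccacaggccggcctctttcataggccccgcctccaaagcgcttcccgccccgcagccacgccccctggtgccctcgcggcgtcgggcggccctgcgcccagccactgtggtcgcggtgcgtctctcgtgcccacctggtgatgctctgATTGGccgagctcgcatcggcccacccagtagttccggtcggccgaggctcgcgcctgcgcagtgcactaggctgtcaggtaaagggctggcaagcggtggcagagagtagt
Mvd: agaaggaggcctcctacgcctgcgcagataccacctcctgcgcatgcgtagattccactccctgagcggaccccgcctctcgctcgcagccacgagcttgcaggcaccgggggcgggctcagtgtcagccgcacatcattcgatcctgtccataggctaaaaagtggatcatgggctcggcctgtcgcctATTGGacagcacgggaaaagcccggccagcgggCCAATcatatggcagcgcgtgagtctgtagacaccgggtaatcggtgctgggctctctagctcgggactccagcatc
Tm7sf2: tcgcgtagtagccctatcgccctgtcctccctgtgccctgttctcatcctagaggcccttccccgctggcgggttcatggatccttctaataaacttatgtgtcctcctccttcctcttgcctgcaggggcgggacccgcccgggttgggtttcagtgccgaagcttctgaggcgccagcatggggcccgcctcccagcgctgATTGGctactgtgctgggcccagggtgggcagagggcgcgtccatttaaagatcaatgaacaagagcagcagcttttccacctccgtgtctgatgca
CCAAT began 62 bases before the start in Lss and 47 bases before it in Tm7sf2, which moved the other way. A promoter was listed for 25 of the 30 members, and 22 of the 25 (88.0%) held CCAAT on either strand, while Abca1, Acat2 and Scap did not. The share was 41.1% of 27025 genes with a listed promoter. Those genes were not limited to expressed or coding ones, so a difference particular to sterol genes cannot be read from these shares. The sterol regulatory element TCACNCCAC, on either strand, was in 1 of the 25 (4.00%), Hmgcs1, against 1.44% of all genes. The motifs were counted separately, so a stretch of letters may serve both. These are matches of letters in a window and nothing was tested about a factor binding there.

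Fresh-frozen libraries held 33101755 to 58048387 counts, those fixed for 18 h 16269854 to 22494012 and those fixed for 3 wk 3666173 to 11780691. The ribosomal precursor Rn45s took 0.129% to 0.520% of counts in fresh-frozen libraries, 6.42% to 37.3% after 18 h of fixation and 4.85% to 13.2% after 3 wk, and no total, Rn45s share or top-gene share differed between furan and control beyond its spread in exact two-sided permutation tests (9 tests, lowest adjusted p 0.600; 3 against 3 libraries cannot go below p = 0.100 and 4 against 4 not below 0.0286). The hepatocyte markers summed to 133672 to 143983 CPM (counts scaled to library size) in furan and 130770 to 136691 CPM in control fresh-frozen livers, with none at 0. With edgeR, 1 of these 8 markers fell and 0 rose at an adjusted p under 0.05, where 7.47% of all genes fell and 8.21% rose. The spread between libraries of a group was widest at 3 wk: the common dispersion was 0.0150 in frozen livers, 0.0284 at 18 h and 0.336 at 3 wk. The 18 h and 3 wk libraries come from the same animals, so these values are not a measure of animal differences alone.

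In fresh-frozen livers, 3 synthesis enzymes and the sterol sensor Insig1 were higher under furan, and a sterol reductase, Mylip and Npc2 were lower. Of 29 members tested, 4 rose under furan (Mvd, Fdft1, Lss and Insig1) and 3 fell (Tm7sf2, Mylip and Npc2), with edgeR's quasi-likelihood test and Benjamini-Hochberg adjusted p under 0.05. Over all 13794 genes tested, 8.21% rose and 7.47% fell. The members' median log2 fold change was 0.15, against -0.01 over all genes; it was 0.05 without control animal 04, 0.10 without furan animal 41 and 0.25 without control animal 02. All furan libraries lay above all control libraries for 5 members and below them for 3, and 37.4% of all genes did not overlap in one or other direction. The remaining member, Hmgcs1, the cytosolic HMG-CoA synthase that every mevalonate-making cell uses, is listed at 0 counts in all 22 libraries, so it gave no measurement; 3 counts would have been 0.0517 to 0.0906 CPM in the fresh-frozen libraries.

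**Figure D1:**
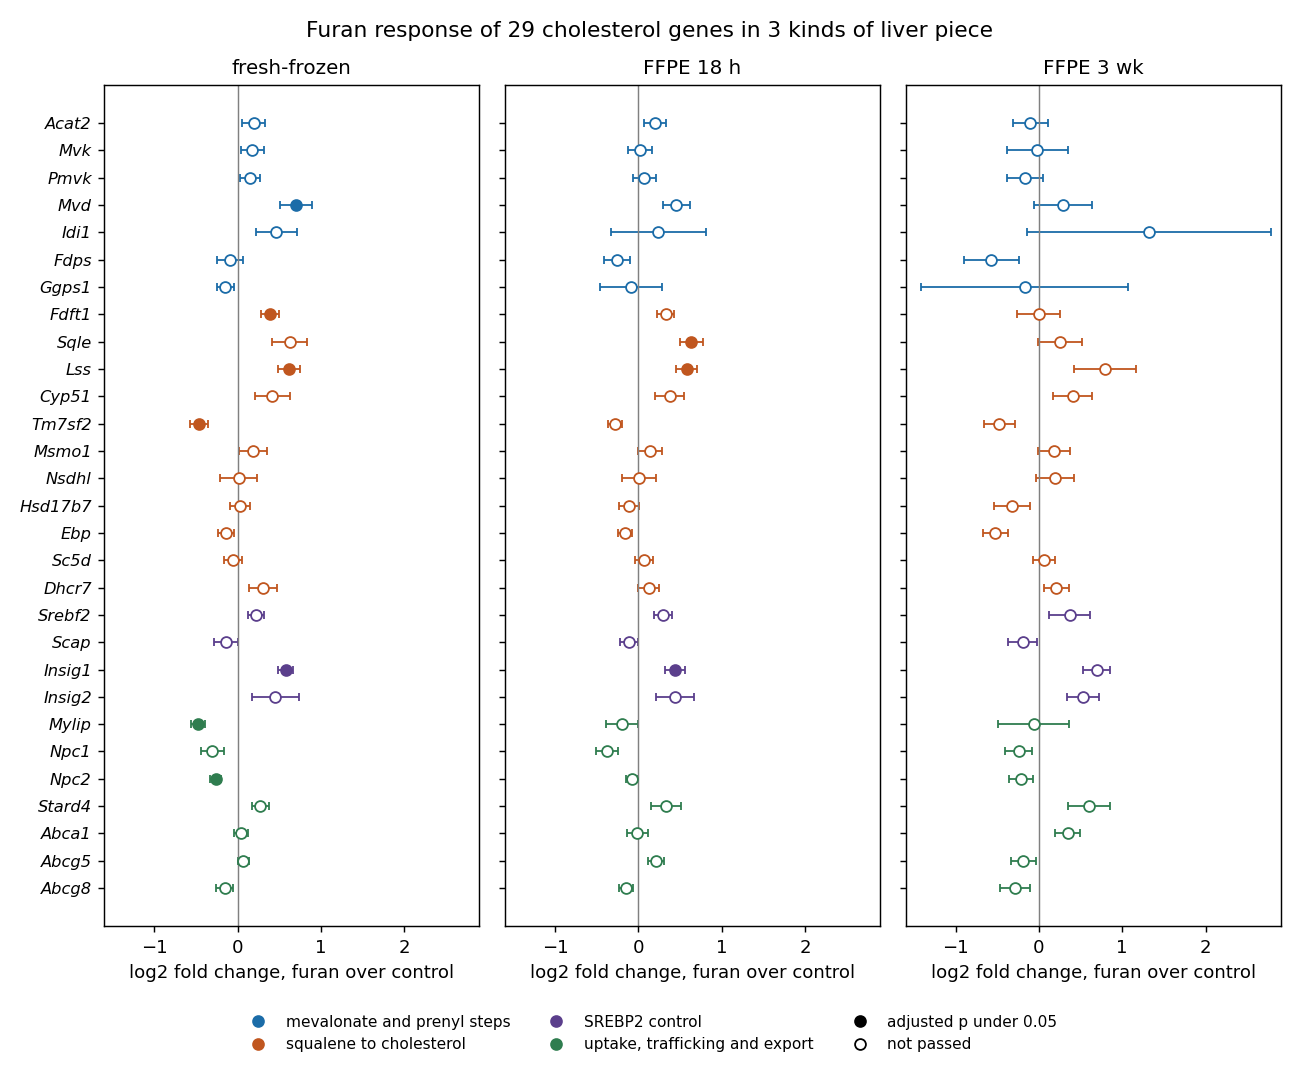
Log2 fold change of furan over control with its SE for the 29 tested members (rows, coloured by role), in fresh-frozen (n = 3 each), FFPE 18 h and FFPE 3 wk livers (n = 4 each). Filled points had an adjusted p under 0.05: there are 7 in frozen livers, 3 at 18 h and 0 at 3 wk, where the bars of Idi1 and Ggps1 are widest.

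Among the mevalonate and prenyl enzymes, 1 of 7 tested rose and 0 fell, where 8.21% of all genes rose and 7.47% fell. The counts of this and the following groups of members were not tested against these shares. Mvd, which decarboxylates mevalonate diphosphate, had 31.3, 30.2 and 25.3 CPM in furan livers, against 23.8, 13.4 and 16.3 CPM in control livers (CPM scaled by TMM, in the order of animals given above). The groups did not overlap, but furan animal 44 and control animal 02 lay close. The log2 fold change was 0.70 ± 0.19 (SE, n = 3 each, edgeR, Benjamini-Hochberg adjusted p = 0.0441). The other 6 did not pass: their log2 values ran from -0.15 for Ggps1, which makes the prenyl donor geranylgeranyl diphosphate, to 0.47 ± 0.24 for Idi1, the isopentenyl diphosphate isomerase. Between them were Acat2 at 0.19 (the cytosolic thiolase that starts the pathway), the mevalonate kinase Mvk at 0.17, the phosphomevalonate kinase Pmvk at 0.15 and Fdps, farnesyl diphosphate synthase, at -0.09.

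From squalene onward, 2 of 11 enzymes rose and 1 fell, where 8.21% of all genes rose and 7.47% fell. Fdft1, squalene synthase, which commits farnesyl diphosphate to sterols, had 120.1, 124 and 114 CPM in furan livers, against 105, 79.0 and 90.3 CPM in control livers. Lss, lanosterol synthase, which closes the sterol rings, had 115, 122 and 108 CPM in furan livers, against 87.7, 60.6 and 77.2 CPM in control livers. Neither gene's groups overlapped, and their log2 fold changes were 0.39 ± 0.10 for Fdft1 (edgeR, Benjamini-Hochberg adjusted p = 0.0399) and 0.61 ± 0.13 for Lss (adjusted p = 0.0184; n = 3 each). Sqle, squalene epoxidase, a rate-controlling step between them, had 144, 163 and 128 CPM in furan livers, against 130.1, 69.4 and 82.9 CPM in control livers. Control animal 02 lay above furan animal 44, and the log2 fold change of 0.62 ± 0.21 did not pass (adjusted p = 0.0833). Tm7sf2, a sterol reductase acting after lanosterol demethylation, moved the other way, with 96.0, 74.7 and 85.2 CPM in furan livers, against 127, 106 and 120.0 CPM in control livers. Its groups did not overlap, and it fell by 0.46 ± 0.11 on the log2 scale (adjusted p = 0.0239).

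The other 7 enzymes after Lss did not pass in fresh-frozen livers. The lanosterol demethylase Cyp51 had 284, 292 and 214 CPM in furan livers, against 271, 153 and 168 CPM in control livers, and the groups overlapped through control animal 02 (log2 fold change 0.42 ± 0.22). Dhcr7, the reductase of the last step, was at 0.31, the methyl oxidase Msmo1 at 0.18, the ketosteroid reductase Hsd17b7 at 0.03, the sterol dehydrogenase Nsdhl at 0.01, the desaturase Sc5d at -0.06 and the sterol isomerase Ebp at -0.14.

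In the control system, Insig1 rose and the other 3 did not pass, where 8.21% of all genes rose and 7.47% fell. Insig1 had 430.4, 419 and 363 CPM in furan livers, against 293, 261 and 259 CPM in control livers. Every furan library was above every control library, and the log2 fold change was 0.58 ± 0.09 (n = 3 each, edgeR, Benjamini-Hochberg adjusted p = 0.00821). Insig2, its paralog, had 231, 222 and 219 CPM in furan livers, against 239, 163 and 91.4 CPM in control livers. The furan libraries were close together while the controls were spread on both sides of them, and the log2 fold change was 0.45 ± 0.28 (adjusted p = 0.317). Srebf2 was at 0.22 ± 0.10 and Scap at -0.14 ± 0.14 on the same scale.

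Uptake, trafficking and export held 2 falls among 7 genes and no rise, where 7.47% of all genes fell and 8.21% rose. Mylip, an E3 ubiquitin ligase known for sending the LDL receptor to degradation, had 10.4, 10.5 and 9.41 CPM in furan livers, against 13.2, 15.0 and 13.9 CPM in control livers. Npc2, which carries cholesterol out of the lysosome lumen, had 52.9, 54.2 and 54.8 CPM in furan livers, against 64.4, 68.3 and 61.5 CPM in control livers. Neither overlapped, and the falls were 0.47 ± 0.09 on the log2 scale for Mylip (n = 3 each, edgeR, Benjamini-Hochberg adjusted p = 0.0121) and 0.26 ± 0.06 for Npc2 (adjusted p = 0.0302). Npc1, the membrane partner of Npc2, was at -0.30 ± 0.14 and the cytosolic sterol carrier Stard4 at 0.27 ± 0.10, both unpassed. The exporters were at 0.04 for Abca1, 0.07 for Abcg5 and -0.16 for Abcg8, the last pair forming 1 transporter.

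The fresh-frozen calls depended on single libraries. The 7 calls became 2 without furan animal 43, 3 without furan animal 44, 4 without furan animal 41 and 4 without control animal 04; Insig1 and Mylip remained in each of these. Mvd did not pass with robust dispersions, nor without any 1 of furan animals 41, 43 or 44 or control animals 04 or 06 (adjusted p 0.00253 to 0.677 over 15 alternatives), and Fdft1 without the same 5 (0.00851 to 1.00). Npc2 did not pass without any 1 of furan animals 41, 43 or 44 or control animals 02 or 04 (0.0168 to 0.503), Tm7sf2 without furan animals 43 or 44 or control animal 02 (0.00129 to 0.276), and Lss without furan animal 43 (0.000140 to 0.793). In 1 model of all 6 groups, which shares a dispersion with the FFPE libraries, 0 members passed. Mylip and Npc2 did not pass at the depth of the shallowest library, with log2 fold changes of -0.16 and -0.25. Fdft1 and Tm7sf2 also carry 18.31% and 12.08% of exon length overlapped by Ctsb and Vps51 in GENCODE, and the library kit kept no strand. These bulk libraries cannot tell apart fewer cells of a type from less RNA per cell: the 8 sinusoidal endothelial markers summed to 282 to 347 CPM in furan and 403 to 414 CPM in control fresh-frozen livers, 4 of the 8 fell and none was at 0, and their part in the result was not tested.

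**Figure D2:**
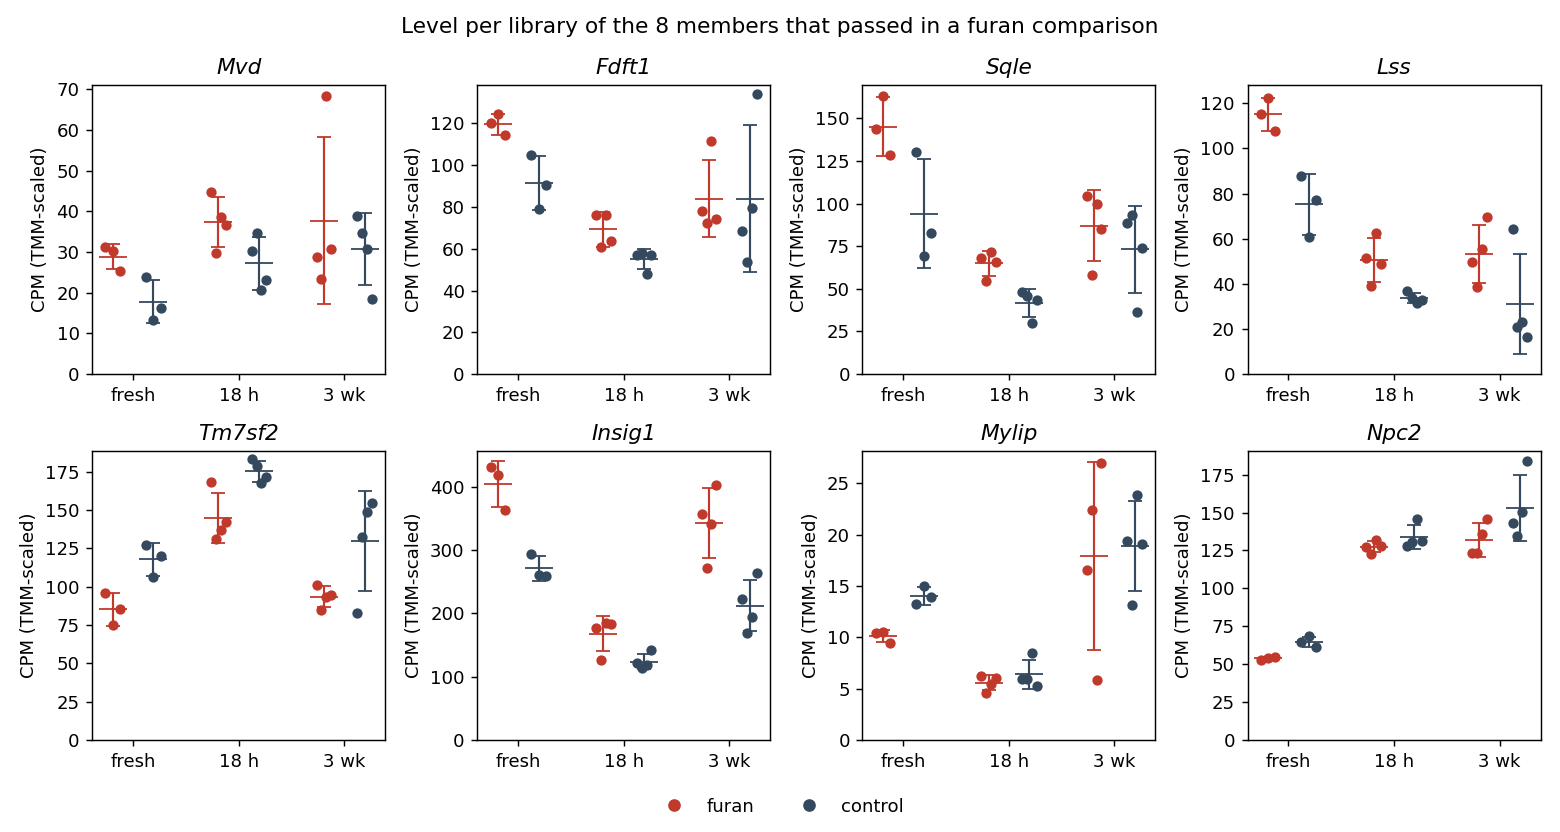
CPM per library (points), mean (line) and SD (bars) of the 8 members that passed in any furan comparison, furan left of control within each kind of piece. Insig1 in furan livers averages 404 CPM against 271 CPM in control livers in frozen tissue, 168 against 124 CPM at 18 h and 343 against 212 CPM at 3 wk; the FFPE 3 wk libraries scatter most.

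In FFPE 18 h livers, 3 of 29 members rose, Sqle, Lss and Insig1, and 0 fell; Lss and Insig1 had also risen in fresh-frozen tissue of the same animals, so these are not independent animals. Over all 12832 genes tested, 3.92% rose and 4.47% fell. The members' median log2 fold change was 0.07, against -0.01 over all genes. It ran from 0.02 without control animal 04 to 0.16 without furan animal 44, so its size depended on single libraries. Each of these shifts was smaller than the SD between libraries of a group. Furan libraries lay all above the controls for 4 members and all below for 1, with 15.7% of all genes not overlapping.

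Sqle had 68.0, 54.8, 71.6 and 65.5 CPM in furan livers, against 47.9, 46.0, 29.8 and 43.4 CPM in control livers. Lss had 51.6, 39.2, 62.5 and 48.8 CPM in furan livers, against 36.8, 33.9, 31.6 and 32.9 CPM in control livers. Both were separated without overlap, with log2 fold changes of 0.64 ± 0.14 for Sqle (n = 4 each, edgeR, Benjamini-Hochberg adjusted p = 0.0127) and 0.58 ± 0.12 for Lss (adjusted p = 0.0124). Insig1 had 177, 127, 184 and 183 CPM in furan livers, against 122, 113, 119 and 141 CPM in control livers. Furan animal 42 lay below control animal 06, and the log2 fold change was 0.44 ± 0.12 (edgeR, Benjamini-Hochberg adjusted p = 0.0347). The Insig1 call was lost without any 1 of control animals 02, 03 or 04 or furan animals 41, 43 or 44 (adjusted p 0.00383 to 0.166 over 18 alternatives), and in 1 model of all 6 groups none of the 3 passed. The sinusoidal endothelial markers summed to 253 to 285 CPM in furan and 328 to 371 CPM in control FFPE 18 h livers, with 1 of 8 lower by the test; their part in the result was not tested.

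Fdft1 and Tm7sf2 stood near the threshold at 18 h. Fdft1 had 76.4, 60.7, 76.3 and 63.8 CPM in furan livers, against 57.2, 58.2, 48.1 and 57.1 CPM in control livers, with no overlap (log2 fold change 0.33 ± 0.10, edgeR, Benjamini-Hochberg adjusted p = 0.0627). Tm7sf2 had 168, 131, 137 and 142 CPM in furan livers, against 183, 178, 168 and 172 CPM in control livers, touching at furan animal 41 (-0.28 ± 0.09, adjusted p = 0.0658). DESeq2 called 6 members at 18 h, adding Fdft1 higher and Npc1 and Tm7sf2 lower; over all 12832 genes it called 1463, against 1077 with edgeR.

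The other fresh-frozen calls were smaller or more scattered at 18 h. Mvd had 44.7, 29.8, 38.6 and 36.5 CPM in furan livers, against 30.4, 34.8, 20.7 and 23.0 CPM in control livers (log2 fold change 0.45 ± 0.16, edgeR, Benjamini-Hochberg adjusted p = 0.108). Mylip had 6.22, 4.61, 5.47 and 6.07 CPM in furan livers, against 5.90, 5.95, 8.43 and 5.30 CPM in control livers. Npc2 had 127, 123, 132 and 128 CPM in furan livers, against 128, 131, 146 and 131 CPM in control livers. Mylip and Npc2 overlapped between the groups, at -0.20 ± 0.19 and -0.07 ± 0.07 on the log2 scale. Of the remaining members, the log2 values ran from -0.38 ± 0.13 for Npc1 to 0.44 ± 0.22 for Insig2.

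In FFPE 3 wk livers, no member passed edgeR's test. Of all 12064 genes tested, 0.298% rose and 0.522% fell. Of the members, 7 had an unadjusted p under 0.05, as had 1318 of all 12064 genes, and DESeq2 called 2, Insig1 higher and Ebp lower, among 353 genes it called in all. The members' median log2 fold change was -0.00, against 0.02 over all genes. It was -0.03 without furan animal 41, 0.16 without furan animal 42 and above 0 without any other 1 library. The sinusoidal endothelial markers summed to 381 to 427 CPM in furan and 434 to 513 CPM in control FFPE 3 wk livers. With edgeR 0 of the 8 rose or fell, and their part in the result was not tested.

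Insig1 had 357, 271, 341 and 403 CPM in furan livers, against 222, 169, 194 and 264 CPM in control livers. All 4 furan libraries were above all 4 controls, as in fresh-frozen tissue, with a log2 fold change of 0.69 ± 0.16 (edgeR, Benjamini-Hochberg adjusted p = 0.0591). It passed without control animal 06, which gave the only member called in that fit. Ebp had 277, 247, 347 and 256 CPM in furan livers, against 421, 349, 363 and 487 CPM in control livers, also without overlap (-0.52 ± 0.15, adjusted p = 0.126). Among the 29 tested members, 1 lay wholly above the controls and 1 wholly below. The matching share of all genes was not counted at 3 wk, so these separations are description only.

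The other members called elsewhere overlapped between groups at 3 wk. Lss had 49.5, 38.7, 55.4 and 69.7 CPM in furan livers, against 64.3, 21.1, 23.2 and 16.6 CPM in control livers, where animal 02, the shallowest library, stood apart. Tm7sf2 had 101, 84.6, 93.6 and 94.6 CPM in furan livers, against 83.1, 132, 149 and 155 CPM in control livers, where the same animal 02 was the low one. Their log2 fold changes were 0.79 ± 0.37 and -0.48 ± 0.19. Sqle had 58.4 to 105 CPM in furan livers, against 36.6 to 93.2 CPM in control livers. Fdft1 had 72.3 to 112 CPM in furan livers, against 53.5 to 134 CPM in control livers, and Mvd 23.3 to 68.3 CPM in furan livers, against 18.3 to 39.0 CPM in control livers. The low-count gene Mylip had 5.82 to 26.9 CPM in furan livers, against 13.2 to 23.8 CPM in control livers. Npc2 had 123 to 146 CPM in furan livers, against 135 to 184 CPM in control livers.

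The furan response of each member was then compared between kinds of piece as an interaction of treatment and preservation. No member differed between FFPE 18 h and fresh-frozen tissue, nor between FFPE 3 wk and fresh-frozen tissue, with edgeR and Benjamini-Hochberg adjustment. No other gene did either: 0% of 13739 genes at 18 h and 0% of 13156 genes at 3 wk, with 455 and 590 genes at an unadjusted p under 0.05 and 1 and 19 genes called by DESeq2. Among members, 1 had an unadjusted p under 0.05 at 18 h (Npc2, 0.20 ± 0.09) and 0 at 3 wk, and DESeq2 called 0 in both. The differences in log2 fold change at 18 h were -0.02 ± 0.20 for Lss, 0.03 ± 0.27 for Sqle, -0.12 ± 0.17 for Insig1 and -0.24 ± 0.28 for Mvd. At 3 wk they were 0.14 ± 0.21 for Insig1, 0.22 ± 0.48 for Lss and -0.39 ± 0.49 for Mvd. The members' SEs ran from 0.09 to 0.62 at 18 h and from 0.17 to 1.31 at 3 wk, and a missed threshold does not show that the responses were alike.

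The synthesis enzymes were also summarised per animal. For each library, the median over 18 enzymes of log2(CPM + 0.5) was taken relative to the control mean of that kind of piece. That mean covers control animals 02, 04 and 06 in fresh-frozen tissue and also 03 in both FFPE kinds. The baseline of an animal's values therefore differs between fresh-frozen and FFPE tissue. Furan animal 41 was at 0.23, 0.34 and 0.36 in fresh-frozen, FFPE 18 h and FFPE 3 wk tissue, furan animal 43 at 0.28, 0.24 and 0.28, and furan animal 44 at 0.07, 0.03 and -0.03. Control animal 02 was at 0.30, 0.11 and 0.16, control animal 06 at -0.04, -0.03 and -0.08, and control animal 04 at -0.27, -0.21 and -0.12. Furan animal 42, at -0.14 and -0.30 in FFPE 18 h and 3 wk tissue, was the lowest furan animal in both and has no fresh-frozen library here, while control animal 03 was at 0.13 and 0.08. Furan and control animals therefore overlapped on this summary in every kind of piece, and the 3 controls present in every kind of piece kept the order 02, 06, 04 from high to low. Restricting FFPE 18 h tissue to the animals also used in fresh-frozen tissue gave 4 members passing, Mvd with the other 3, and a median log2 fold change of 0.18.

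**Figure D3:**
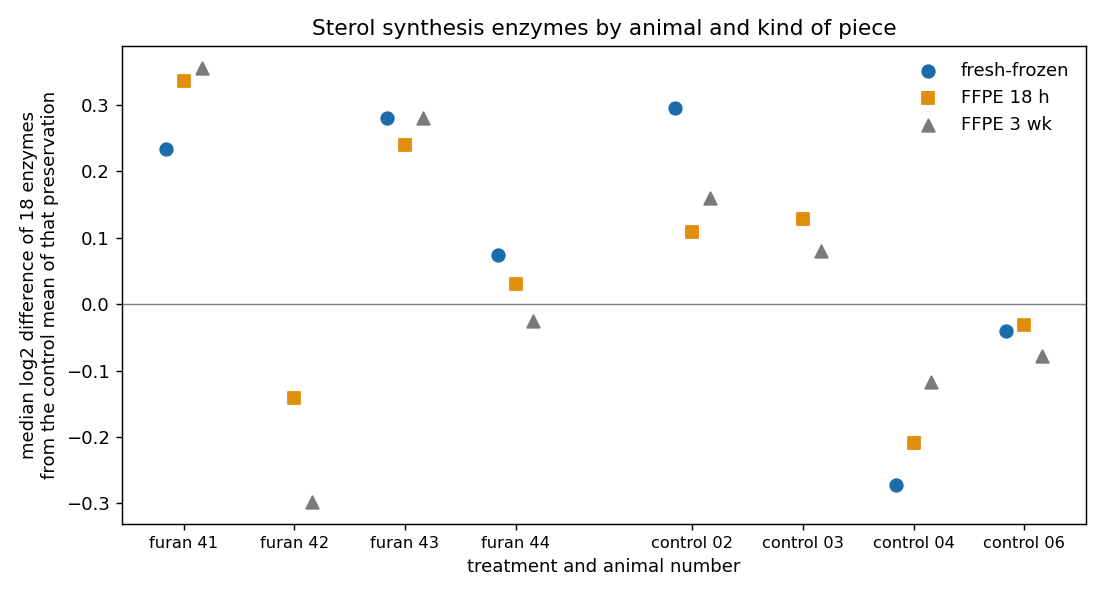
Median log2 difference of 18 sterol synthesis enzymes from the control mean of the same kind of piece (vertical axis), for each furan and control animal (horizontal axis), with 1 symbol per kind of piece. Control animal 02 stands above furan animals 41 and 43 in fresh-frozen tissue (0.30 against 0.23 and 0.28) and below both at 18 h and 3 wk, and furan animal 42 is the lowest furan animal.

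Companion genes of the pathway were read from the same fits, in lists whose counts were not tested against the shares of all genes. Over all genes, 8.21% rose and 7.47% fell in fresh-frozen livers, 3.92% and 4.47% at 18 h, and 0.298% and 0.522% at 3 wk. Cyb5r3, which passes electrons to sterol oxidases, had 552 to 647 CPM in furan and 437 to 510.0 CPM in control FFPE 18 h livers (n = 4 each), with no overlap, and rose by 0.31 on the log2 scale (edgeR, Benjamini-Hochberg adjusted p = 0.0280). It did not pass in fresh-frozen or FFPE 3 wk livers, at 0.26 and 0.09 on the log2 scale. In the list of SREBP processing and sterol sensing, 1 of 13 rose in fresh-frozen livers; at 18 h 1 rose and 1 fell, and at 3 wk 0 passed with edgeR, where 4 of the 13 had an unadjusted p under 0.05. Syvn1, an endoplasmic reticulum ubiquitin ligase, averaged 134 ± 10.5 CPM in furan and 88.1 ± 10.7 CPM in control fresh-frozen livers (SD, n = 3 each; log2 fold change 0.60, edgeR, Benjamini-Hochberg adjusted p = 0.00951), and rose by 0.42 on the log2 scale at 18 h (adjusted p = 0.00873). Srebf1, which encodes the lipogenic SREBP, averaged 170.0 ± 27.7 CPM in furan and 239 ± 29.1 CPM in control FFPE 18 h livers (SD, n = 4 each). At 18 h it fell by 0.49 on the log2 scale (edgeR, Benjamini-Hochberg adjusted p = 0.0218), opposite in sign to Insig1 there. Srebf1 was not called in fresh-frozen or FFPE 3 wk livers.

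The calls in the LXR and efflux list and in the bile acid list were all falls, of Cyp46a1, Cyp27a1 and Rxra. None of these is a transporter, and the exporters Abca1, Abcg5 and Abcg8 passed in no furan comparison. In the LXR and efflux list, 3 of 13 fell in fresh-frozen, 2 at 18 h and 1 at 3 wk, with no rise in any. Over all genes, 7.47% fell in fresh-frozen livers, 4.47% at 18 h and 0.522% at 3 wk. Cyp46a1, the cholesterol hydroxylase best known from brain, averaged 104 ± 27.7 CPM in furan and 241 ± 48.5 CPM in control fresh-frozen livers (SD, n = 3 each). It fell by 1.21 on the log2 scale in fresh-frozen livers (edgeR, Benjamini-Hochberg adjusted p = 0.0104), by 1.34 at 18 h (adjusted p = 0.000219) and by 1.37 at 3 wk (adjusted p = 0.00117). Cyp27a1, the mitochondrial sterol hydroxylase, which this list shares with the bile acid list, averaged 354 ± 27.7 CPM in furan and 486 ± 67.9 CPM in control fresh-frozen livers and fell by 0.46 there (adjusted p = 0.0311) and by 0.35 at 18 h (adjusted p = 0.0412). Rxra, the nuclear receptor partner of LXR, fell by 0.31 in fresh-frozen livers (edgeR, Benjamini-Hochberg adjusted p = 0.0351) and was not called at 18 h or 3 wk.

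Among 21 genes of sterol esterification, storage and transfer tested in fresh-frozen livers, 1 rose and 1 fell. At 18 h 0 of 20 rose and 2 fell, and at 3 wk 0 rose and 1 fell. The shares of all genes were 8.21% and 7.47% in fresh-frozen livers, 3.92% and 4.47% at 18 h, and 0.298% and 0.522% at 3 wk. Soat2, which esterifies cholesterol in hepatocytes, averaged 44.8 ± 5.36 CPM in furan and 68.1 ± 8.28 CPM in control FFPE 18 h livers and fell by 0.61 (edgeR, Benjamini-Hochberg adjusted p = 0.00482). Ces3a, a liver carboxylesterase, fell by 0.63 in fresh-frozen livers (adjusted p = 0.0323), by 0.59 at 18 h (adjusted p = 0.0181) and by 0.73 at 3 wk (adjusted p = 0.0190). The oxysterol-binding protein gene Osbp rose by 0.37 in fresh-frozen livers (edgeR, Benjamini-Hochberg adjusted p = 0.0155). Osbp was not called at 18 h or 3 wk, nor was Soat2 in fresh-frozen or FFPE 3 wk livers. In the isoprenoid branch none of 11 passed in fresh-frozen or 18 h livers, and none of 10 at 3 wk. The bile acid list held 1 fall among 8, Cyp27a1, in fresh-frozen and 18 h livers and none at 3 wk.

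Among control livers, the measured level of most members differed between FFPE and fresh-frozen pieces, with the kit and sections moving along with fixation. In FFPE 18 h against fresh-frozen control livers, 8 members were higher and 16 lower among 29 tested, where 34.2% of all genes were higher and 33.8% lower. The members' median log2 difference was -0.49, against 0.02 over all 13034 genes. In FFPE 3 wk against fresh-frozen control livers, 5 members were higher and 10 lower, where 13.2% of all genes were higher and 13.0% lower, and the median was -0.26 against -0.03 over 12145 genes; it was -0.11 without fresh-frozen control animal 02 and -0.41 without fresh-frozen control animal 04.

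Idi1 differed most, with few counts left in FFPE tissue: it averaged 0.673 ± 0.372 CPM in FFPE 18 h (SD, n = 4; 6 to 13 counts per library) and 15.9 ± 5.89 CPM in fresh-frozen control livers (n = 3; 695 to 1109 counts). The log2 difference was -4.65 ± 0.36 at 18 h (edgeR, Benjamini-Hochberg adjusted p = 2.1e-06) and -4.69 ± 0.78 at 3 wk (adjusted p = 0.00229). Its furan log2 fold changes carried SEs of 0.57 at 18 h and 1.46 at 3 wk. Stard4 differed by -2.68 and -2.38, Srebf2 by -2.18 and -1.57, Npc1 by -1.47 and -1.32 and Abca1 by -1.40 and -1.29 at 18 h and 3 wk. Members higher in both FFPE kinds were Ebp (1.70 and 1.42), Pmvk (1.38 and 1.26), Npc2 (1.33 and 1.18), Msmo1 (0.50 and 1.32) and Acat2 (1.26 and 1.60), Acat2 sharing 45.89% of its 50-nt words with Acat3. Ebp averaged 407 ± 26.6 CPM in FFPE 18 h and 126 ± 15.6 CPM in fresh-frozen control livers, with no overlap.

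Longer transcripts tended to be lower in FFPE tissue. Across the 29 members, Spearman's rho between the log2 difference and the longest coding transcript in GENCODE was -0.74 at 18 h and -0.59 at 3 wk. Over all genes with a length it was -0.58 (12013 genes) and -0.42 (11307 genes), so the pattern is shared with the rest of the table; the points share libraries and genes are not independent replicates. The 15 members at or under the median length of 3027 nt were at a median of 0.47 at 18 h and 0.36 at 3 wk, and the 14 longer ones at -0.87 and -0.66. By this measure, exceptions were 5 of the 15 shorter members that lay below 0 at 18 h (Idi1, Fdps, Sqle, Insig1 and Insig2). Npc2, longer by the same measure, lay above 0. The transcript that these livers expressed was not measured and need not be the longest one annotated. Fdps, at -0.83 and -1.65, shares 86.42% of its 50-nt words with other annotated genes, most with Gm43738. That gene lies on the same strand and overlaps 26.71% of the exon length of Fdps, so it is an annotation of the same place in the genome. Idi1 shares 21.32%, most with Gm13502. Whether shared words affected the counts was not tested.

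**Figure D4:**
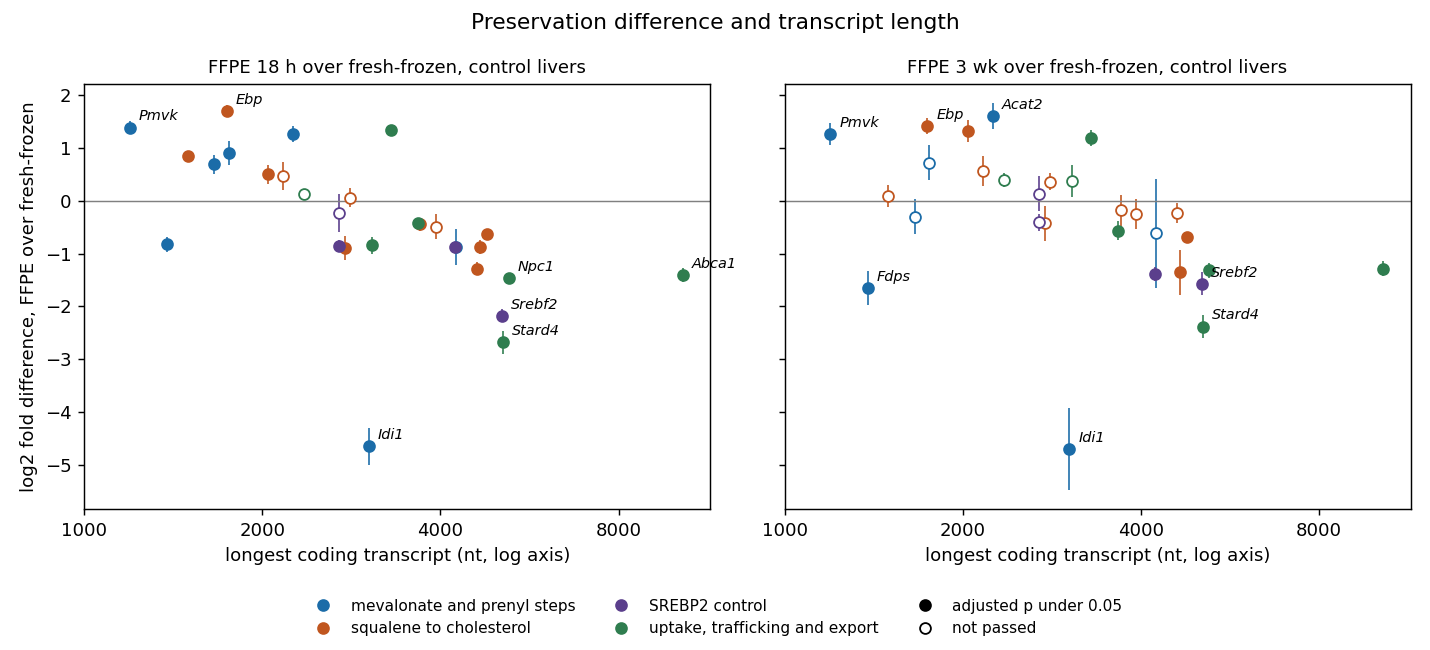
Log2 difference of FFPE over fresh-frozen control livers with its SE (vertical axis) against the longest coding transcript on a log axis (horizontal axis), for 29 members at 18 h and at 3 wk (n = 4 FFPE and 3 fresh-frozen). Points tend to fall from left to right, from Pmvk (1.38 at 18 h) to Stard4 (-2.68). Exceptions at 18 h include Fdps (-0.83), short and below 0, and Npc2 (1.33), above 0 and longer by its longest annotated transcript. Idi1 (-4.65) is far below the rest.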

How the data were processed

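Counts per gene were made by the authors: per the submitters' processing notes the tools were CASAVA 1.8.2, STAR 2.3.0 and featureCounts 1.4.4, with mouse build mm9. The deposited table holds whole-number counts for 24015 gene symbols from poly(A)-selected, unstranded libraries. Of its columns, 22 named the kind of piece and the animal of 1 labelled sample, while 2 fitted no label and were not used. Per the labels, the integrity number was 1.3 to 2.4 in FFPE RNA and over 8.9 in frozen RNA.

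Each comparison was fitted on its own groups with edgeR 4.0.16 in R 4.3.3 (filterByExpr, TMM scaling, quasi-likelihood F test), with Benjamini-Hochberg adjustment over all tested genes and a threshold of 0.05. An SE was obtained by dividing the size of the log2 value by the root of its F statistic. CPM were scaled by the TMM factors of that comparison. The fits were tested on simulated data. All 30 members were accounted for, and those passing in a furan comparison are given per library; of the companion lists, genes passing in a furan comparison are named, up to 4 a list by smallest p. Some results of the list of other sterol synthesis and SREBP2 target genes are not reported here. Members and lists were chosen with earlier results of these data known.

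Pieces with the same number come from the same animal. After removal of group means, fresh-frozen and FFPE 18 h pieces of an animal correlated at r 0.433 to 0.572 across genes, fresh-frozen and FFPE 3 wk pieces at 0.122 to 0.334, and the FFPE pieces at 0.0469 to 0.337. No libraries of a group agreed within sampling noise (lowest chi-square per degree of freedom 9.36). Depth was 3666173 to 58048387 counts, and the floor of 3 counts covers counting error only, because reads were not tagged as single molecules. Transcript lengths, overlaps and shared 50-nt words came from GENCODE on a later build than mm9, and promoters from RefSeq on GRCm38.p6. Alternatives were DESeq2 1.42.0, other scalings and filters, robust dispersions, 1 model of all groups, thinning, removal of Rn45s, shared animals, the animal as a block and each library left out. A fit without the 2 shallowest FFPE 3 wk libraries was chosen after seeing the data.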

Additional observations from a re-analysis of the deposited data

Results flagged for a closer look

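In groups of 4, a library was singled out when its gap to the nearest other exceeded Dixon's 95% critical value; 11 of 124 groups met this, and chance alone would pick about 1 in 20. In FFPE 18 h tissue, Insig1 was low in furan animal 42 at 127 CPM, where the other furan libraries had 177 to 184 CPM. Fdft1 was low in control animal 04 at 48.1 CPM, against 57.1 to 58.2 CPM in the other controls. Control animal 06 stood high for Npc1 (135 CPM, others 112 to 115), Stard4 (32.6 CPM, others 17.1 to 18.6) and Abca1 (127 CPM, others 88.8 to 92.7), and its Rn45s share was 37.3%, against 6.42% to 7.22% in the other controls; Rn45s removal left the 18 h count at 3 members.

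In FFPE 3 wk tissue, furan animal 43 was high for Mvd (68.3 CPM, others 23.3 to 30.7) and Fdft1 (112 CPM, others 72.3 to 78.3). Mvk was high in control animal 06 at 33.1 CPM, against 16.9 to 17.0 CPM in the other controls. Lss was high in control animal 02 at 64.3 CPM, against 16.6 to 23.2 CPM in the others. That library also had the lowest total of its group, 3666173 counts against 9708205 to 10481659.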

How the results depend on the processing

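No called member changed sign under the alternatives run; the members' median, which is near 0 at 3 wk and for both interactions, did. That median ran from -0.05 to 0.16 at 3 wk, from -0.15 to 0.09 for the 18 h interaction and from -0.12 to 0.05 for the 3 wk interaction. The 7 fresh-frozen calls became 8 with DESeq2, which called 2372 of all 13794 genes, against 2162 with edgeR. They became 0 in 1 model of all 6 groups and ran from 2 to 8 when each library was left out. The 3 calls in FFPE 18 h livers became 6 with DESeq2, 5 with a filter at 5 CPM and 0 in 1 model of all 6 groups, and 2 to 4 with a library left out. The 0 calls in FFPE 3 wk livers became 2 with DESeq2, 1 without a low-count filter, 1 with robust dispersions, 3 in 1 model of all 6 groups (Ebp, Insig1 and Tm7sf2), 1 after thinning to 3666173 counts, and 0 to 1 with a library left out. In 1 model the groups share a dispersion, and the fresh-frozen adjusted p of Insig1 was 0.117. The furan responses differed between kinds of piece in 0 members under all 24 alternatives at 18 h and all 25 at 3 wk, the animal as a block included. The block gave 27 members differing between FFPE 18 h and fresh-frozen control livers in place of 24 and 15 at 3 wk, as without it. With a library left out these counts were 22 to 25 and 13 to 17; without fresh-frozen control animal 04 the 18 h median moved to -0.66. Mylip and Npc2 did not pass in fresh-frozen livers at the thinned depth (adjusted p 0.637, range 0.00132 to 1.00, and 0.188, range 0.0168 to 0.503). With robust dispersions Mvd missed the threshold (adjusted p 0.0741, range 0.00253 to 0.677). In FFPE tissue, depth and spread limit low members: Idi1 had 1 to 11 and Ggps1 1 to 73 counts per control library at 3 wk.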

Other observations

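Insig2 varied less among furan animals than among controls in each kind of piece. The pieces come from the same animals, so these are not independent observations, and the difference in spread was not tested. The furan animals had 219 to 231 CPM in fresh-frozen, 145 to 173 CPM in FFPE 18 h and 239.6 to 292 CPM in FFPE 3 wk tissue. In the same order, control animal 02 had 239, 155 and 241 CPM and control animal 06 had 91.4, 54.7 and 118 CPM. Control animals 02 and 06 were the highest and the lowest control library for Insig2 in every kind of piece. Its log2 fold change under furan was 0.45, 0.44 and 0.53, and none passed edgeR's test after Benjamini-Hochberg adjustment (adjusted p = 0.317, 0.261 and 0.271).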
